A study of Mus musculus with 5 samples.

Results

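The subject is how far IL-1β and TGF-β acted independently of each other on gene expression in CD4+ T helper cells that were all primed with IL-4. Of the 5 expression arrays of the series, 4 form a 2 by 2 layout: dual-cytokine cells, labelled Th9(IL4+TGF-b+IL-1b), had both cytokines, IL-1β Th9 cells, labelled Th9(IL4+IL-1b), had IL-1β, classic Th9 cells, labelled Th9(IL4+TGFb), had TGF-β, and Th2 cells had neither. For each gene the difference that IL-1β made without TGF-β (IL-1β Th9 minus Th2) was subtracted from the difference that it made with TGF-β (dual-cytokine minus classic Th9). The result, called non-additivity here, is in log2 units: 0 means that the 2 differences were the same, a positive value that the IL-1β difference was higher with TGF-β present, and a negative value that it was lower. The same number is obtained when the TGF-β difference with and without IL-1β is compared, so it has no direction between the cytokines. It was computed for the 23525 transcript clusters, of 41345 on the array, that the platform annotation gives 1 gene symbol, which represent 22184 genes, each by its brightest cluster.

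The cells were naive CD4+ CD62L+ T cells from spleens of mice with a transgenic receptor for tyrosinase-related protein 1 (TRP-1), a melanocyte antigen, on a Rag1 mutant background, taken at 6 to 8 weeks of age from both sexes. For 3 days they grew beside antigen-presenting cells (irradiated C57BL/6 splenocytes without T cells) and 5 µg/ml TRP-1 peptide, and no sort before RNA extraction is described. Dual-cytokine medium held 10 ng/ml IL-4, 1 ng/ml TGF-β and 10 ng/ml IL-1β. IL-1β Th9 medium held 10 ng/ml IL-4 and 10 ng/ml IL-1β, and classic Th9 medium held 10 ng/ml IL-4 and 1 ng/ml TGF-β. Th2 medium held 10 ng/ml IL-4 and, unlike the other 3 media, 100 U/ml IL-2. All 4 media held 10 µg/ml antibody to IFN-γ. A part of the IL-1β or TGF-β differences against Th2 cells may belong to the absence of added IL-2, and these cannot be told apart. Each condition is 1 array, so there is no replicate error and no test; values, differences and counts past a stated fold are given as descriptions.

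IL-1β binds a receptor that signals through MyD88 and IRAK kinases to NF-κB and the MAP kinases, and it is known to make helper T cells produce more cytokine. TGF-β signals through receptor serine kinases to Smad proteins, induces Foxp3 and the integrin CD103 in T cells, and with IL-4 drives the classic Th9 programme. Genes on which both pathways converge can respond to the pair as the sum of the single responses, or by less or more than that sum. Which sum is meant depends on the scale: equal log2 steps multiply, whereas equal linear increments add.

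Most genes had a non-additivity near 0 on the log2 scale. The median non-additivity over the 22184 genes was -0.01 and its SD over genes was 0.30. A positive non-additivity of 2-fold or more (1 log2 unit) was found in 45 genes (0.203%), and a negative one in 75 genes (0.338%). At 1.5-fold (0.585 log2 units) the counts were 693 genes positive (3.12%) and 652 negative (2.94%). Behind these stand 4 single differences. IL-1β with TGF-β present gave levels higher by 1.5-fold or more in 192 genes (0.865%) and lower in 244 (1.1%), and IL-1β without TGF-β gave higher levels in 279 genes (1.26%) and lower levels in 252 (1.14%). TGF-β with IL-1β present gave higher levels in 269 genes (1.21%) and lower levels in 396 (1.79%), and TGF-β without IL-1β gave higher levels in 284 (1.28%) and lower levels in 392 (1.77%). Most genes thus differed by less than 1.5-fold in each comparison. A median near 0 over all genes therefore does not show whether the genes that did differ were additive.

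The spread depended strongly on how bright a gene was. In the decile of genes with the lowest mean over the 4 arrays the SD of non-additivity was 0.35 and the median was -0.10, while in the brightest decile the SD was 0.13 and the median -0.01. In the fifth decile the median was 0.09. Past 1.5-fold, 126 genes were positive and 66 negative in the fifth decile, against 60 positive and 209 negative in the lowest decile. Transcripts of 1109 olfactory receptors, which T cells are not known to use, had an SD of 0.41, and 16.3% of them passed 1.5-fold in either direction, against 6.06% of all genes. A value just past 1.5-fold was therefore common among dim genes and rare among bright ones. For this reason a gene was also set beside the central 95% of the 500 genes nearest to it in mean level, called genes of like level. The genes named below with a non-additivity of 1.5-fold or more all lay outside that range, which is printed for some of them. A bright gene is one whose mean over the 4 arrays is at or above 7.60, the upper quartile of all values on the 4 arrays. Of 7276 bright genes, 22 (0.302%) had a positive and 20 (0.275%) a negative non-additivity of 1.5-fold or more; this limit was chosen after the values were seen.

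**Figure D1:**
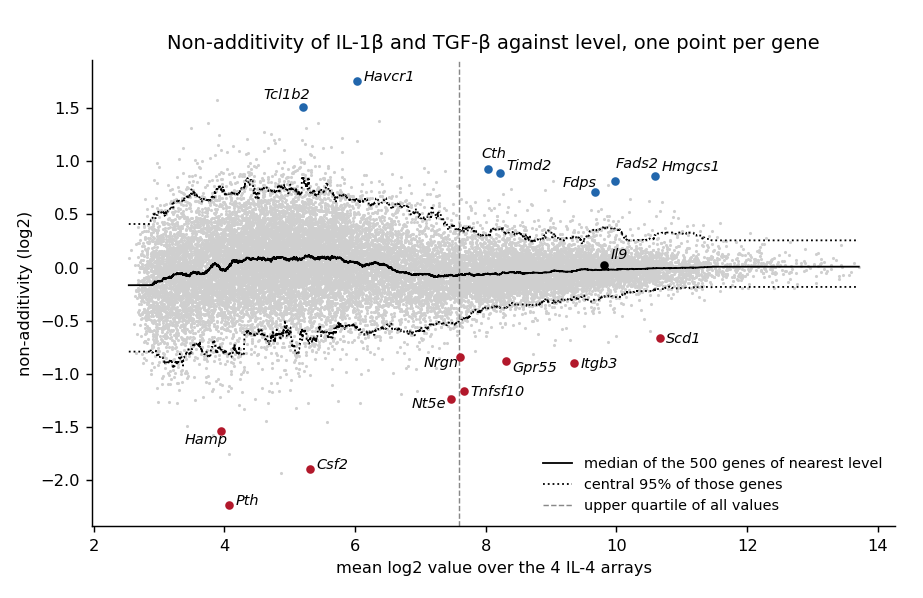
Non-additivity (y axis, log2) against the mean log2 value over the 4 IL-4 arrays (x axis), 1 point per gene. The solid line is the median and the dotted lines the central 95% of the 500 genes nearest in level, the dashed vertical line marks the upper quartile of all values (7.60), and the spread narrows to its right: Csf2 (-1.90), Nt5e (-1.24), Havcr1 (1.76) and Hmgcs1 (0.86) lie outside the dotted lines while Il9 (0.03) lies inside.

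In most genes with a negative value no single array stood apart. Of the 652 genes with a negative non-additivity of 1.5-fold or more, 556 had no array at least 1.5-fold above or below each of the others, and of the 75 past 2-fold 56 had none. Among the 652, the IL-1β Th9 array alone stood above each of the others in 43, and the classic Th9 array alone in 38. The array with both cytokines alone stood below each of the others in 6, and the Th2 array in 7. In 2 more genes one array stood above and another below.

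Csf2, which encodes the cytokine GM-CSF, had the second lowest non-additivity of the ranked genes and was highest in IL-1β Th9 cells. Its log2 level was 5.13 in dual-cytokine cells, 7.53 in IL-1β Th9 cells, 4.05 in classic Th9 cells and 4.54 in Th2 cells. Csf2 was thus higher in both arrays with IL-1β than in those without, but with both cytokines it stood far closer to the Th2 level. The IL-1β difference was 1.09 with TGF-β and 2.99 without, a non-additivity of -1.90 (3.74-fold), where the central 95% of genes of like level ran between -0.65 and 0.71. The gene lies on chromosome 11 at 54247270-54249899 (GRCm38.p6). A second transcript cluster annotated to Csf2 had a non-additivity of 0.01, so the value rests on 1 of 2 clusters.

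Other genes whose IL-1β difference was smaller with TGF-β were mostly dim. Hamp, which encodes the iron hormone hepcidin, had log2 levels of 4.34 with both cytokines, 5.88 in IL-1β Th9 cells, 2.79 in classic Th9 cells and 2.78 in Th2 cells, a non-additivity of -1.54. Pth, which encodes parathyroid hormone, had the lowest value of all ranked genes at -2.24, with levels of 3.92, 5.48, 3.79 and 3.11 in the same order. Both genes were below the median of all values (5.44) in 3 of the 4 arrays. Inhba, the activin A subunit, is itself a member of the TGF-β superfamily: its level was 5.77 with both cytokines, 6.79 in IL-1β Th9 cells, 5.19 in classic Th9 cells and 5.44 in Th2 cells, a non-additivity of -0.76. Gzmf, a granzyme, had levels of 4.81, 5.90, 4.42 and 4.64 in that order and a non-additivity of -0.88. In Csf2, Hamp, Inhba and Gzmf the IL-1β difference kept its sign with TGF-β and was smaller.

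**Figure D2:**
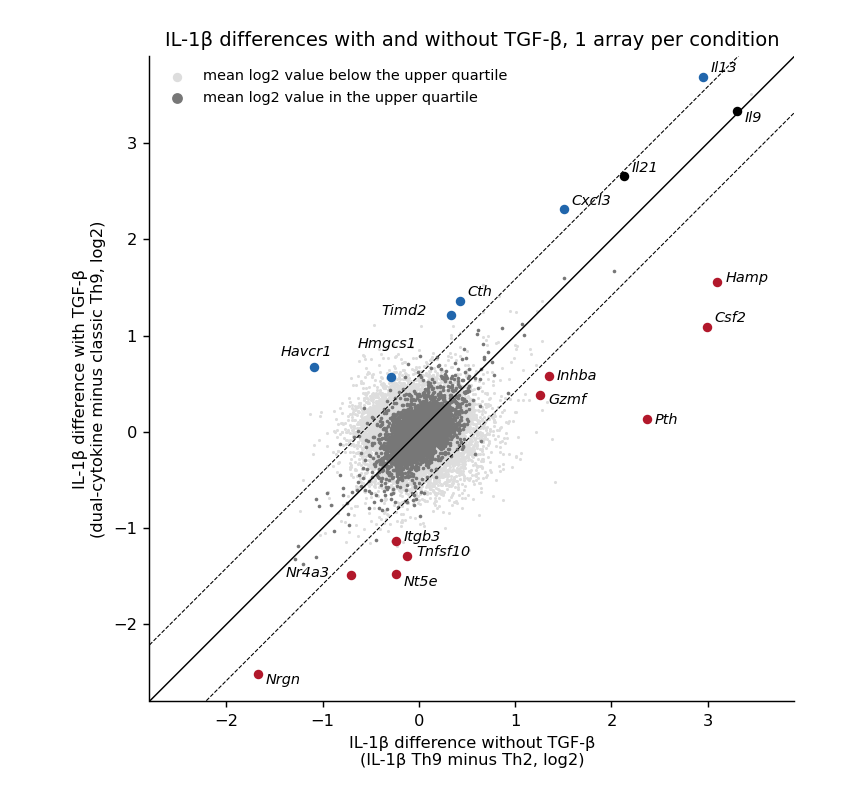
IL-1β difference with TGF-β (y axis, dual-cytokine minus classic Th9, log2) against the IL-1β difference without TGF-β (x axis, IL-1β Th9 minus Th2, log2), 1 point per gene and 1 array per condition. The solid diagonal marks additivity and the dashed lines 1.5-fold from it: Csf2 (1.09 against 2.99) lies below it, Cth (1.36 against 0.43) above, and Il9 (3.33 against 3.31) on it.

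Bright cytokine and receptor genes with a negative value and their highest level in IL-1β Th9 cells were few. Il10, which encodes an anti-inflammatory cytokine, had log2 levels of 9.04 with both cytokines, 9.32 in IL-1β Th9 cells, 9.13 in classic Th9 cells and 8.68 in Th2 cells, a non-additivity of -0.73. All 3 arrays with IL-1β or TGF-β stood above Th2 for Il10, and the pair did not stand above either single cytokine. Il12rb2, a chain of the IL-12 receptor, had levels of 8.48, 9.14, 8.71 and 8.56 in the same order and a non-additivity of -0.81. For Il12rb2 the array with both cytokines was the lowest and IL-1β Th9 cells the highest. Il4, a dimmer gene, had the same order of arrays, with 6.97 in dual-cytokine cells, 7.47 in IL-1β Th9 cells, 7.06 in classic Th9 cells and 6.98 in Th2 cells; its non-additivity of -0.58 lay just beyond the lower end of like genes, -0.57.

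Bright genes with a negative value were mostly highest in classic Th9 cells. Gene models and segments aside, there were 20 of them. The classic Th9 array held the highest level in 15 and the IL-1β Th9 array in 5. By its formula a negative value favours a high level with a single cytokine, so these counts partly restate how the genes were selected. The share over all bright genes was not counted. TGF-β alone gave a level higher by 1.5-fold or more than Th2 in 10 of the 20, and IL-1β added to TGF-β gave a level lower by 1.5-fold or more in 13. IL-1β alone gave a level lower than Th2 by that much in 2.

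Nt5e, which encodes the ecto-enzyme CD73 that makes adenosine from AMP, led this pattern, just below the limit for bright genes. Its log2 level was 7.57 with both cytokines, 6.50 in IL-1β Th9 cells, 9.05 in classic Th9 cells and 6.74 in Th2 cells. The TGF-β difference was 1.07 with IL-1β and 2.31 without, and the non-additivity was -1.24, beyond the -0.53 to 0.39 of like genes. Nt5e was therefore well above Th2 only where TGF-β was given, and lower with both cytokines than with TGF-β. The gene is on the plus strand of chromosome 9. The 250 bases before its start are shown because Nt5e is the clearest TGF-β-raised gene of this kind; capitals mark the hexamer CAGACA, a Smad-binding letter string, found here on the minus strand at bases -70 to -65 from the start (RefSeq, GRCm38.p6, chr9:88327359-88327608, plus strand).
Nt5e: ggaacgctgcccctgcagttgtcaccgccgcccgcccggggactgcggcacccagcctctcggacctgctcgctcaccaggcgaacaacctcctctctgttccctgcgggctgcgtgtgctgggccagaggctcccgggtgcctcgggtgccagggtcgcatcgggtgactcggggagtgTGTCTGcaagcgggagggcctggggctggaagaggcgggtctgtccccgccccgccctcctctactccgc
The hexamer occurs on either strand in the same window of 19.3% of the 27025 genes with a listed promoter, and in 3 of the 15 bright genes with a negative value that have one.

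Tnfsf10, which encodes the death ligand TRAIL, had log2 levels of 7.39 with both cytokines, 7.23 in IL-1β Th9 cells, 8.68 in classic Th9 cells and 7.36 in Th2 cells. Only classic Th9 cells stood apart: the TGF-β difference was 0.16 with IL-1β and 1.32 without, a non-additivity of -1.16 and the lowest among bright genes. The same shape was found for 2 integrin chains that guide T cell positioning. Itgae, the CD103 chain induced by TGF-β, had levels of 7.27, 6.60, 8.40 and 6.88 in the same order (non-additivity -0.85). Itgb3, the integrin β3 chain, had levels of 9.01, 9.02, 10.14 and 9.26 (non-additivity -0.90). For Itgae the level with both cytokines stayed above Th2, whereas for Itgb3 it was below.

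Receptors and signal regulators followed. Gpr55, a lysolipid receptor, had a log2 level of 8.39 with both cytokines, 7.79 in IL-1β Th9 cells, 9.27 in classic Th9 cells and 7.78 in Th2 cells (non-additivity -0.88). Ccr8, a chemokine receptor of Th2 and regulatory T cells, had levels of 10.14, 9.56, 10.77 and 9.54 in that order (non-additivity -0.65). In both genes IL-1β without TGF-β made almost no difference (0.01 and 0.02), while with TGF-β the levels were lower by 0.87 and 0.63. Nr4a3, an orphan nuclear receptor induced by antigen receptor signals, had levels of 7.39, 7.20, 8.88 and 7.90 (non-additivity -0.79), and Dusp6, a phosphatase of ERK, 8.68, 8.66, 9.80 and 9.10 (non-additivity -0.68). A second transcript cluster of Dusp6 had a non-additivity of -0.22, so its value past 1.5-fold rests on 1 of 2 clusters. For Nr4a3 and Dusp6, both arrays with IL-1β were below Th2, and the TGF-β difference was 0.19 and 0.02 with IL-1β, against 0.98 and 0.70 without it. Tiparp (-0.68) and Scd1 (-0.66), a target gene of the aryl hydrocarbon receptor and a fatty acid desaturase, and Cpne3 (-0.70) had the same form, with classic Th9 cells highest and the other 3 arrays close together.

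Nrgn, the gene of the calmodulin-binding neurogranin, differed by more than 2-fold for each cytokine and lay -2.09 log2 units from the sum of linear increments. Its log2 level was 6.85 with both cytokines, 6.26 in IL-1β Th9 cells, 9.36 in classic Th9 cells and 7.93 in Th2 cells, a non-additivity of -0.84. The IL-1β difference was -2.52 with TGF-β and -1.68 without, and the TGF-β difference was 0.59 with IL-1β and 1.43 without.

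Genes linked to regulatory T cells tended to the negative side. Of 19 listed Treg signature genes, 18 were measured, and 15 of them were below 0, as were 11504 of all 22184 genes, with a median of -0.24 against -0.01 over all genes. Past 1.5-fold, 3 were negative (Nt5e, Itgae and Entpd1) and 0 positive, where 2.94% and 3.12% of all genes passed; 6 of the 18 lay below and 1 above the central 95% of genes of like level. Foxp3, the transcription factor of regulatory T cells, had log2 levels of 8.39 with both cytokines, 7.83 in IL-1β Th9 cells, 8.78 in classic Th9 cells and 7.86 in Th2 cells. The Foxp3 difference for TGF-β was 0.56 with IL-1β and 0.92 without, and its non-additivity of -0.36 stayed inside the -0.38 to 0.36 of like genes. Entpd1, the CD39 enzyme that acts one step before CD73, was lowest with both cytokines (6.51, against 7.25 in IL-1β Th9, 7.25 in classic Th9 and 7.37 in Th2 cells; non-additivity -0.62). For TGF-β and Smad target genes as a list, with 33 measured of 36, the median was -0.05, 2 were negative past 1.5-fold (Nt5e and Itgae again) and 0 positive, where 2.94% and 3.12% of all genes passed. Below the central 95% of genes of like level lay 3 of the 33, and above it 0. Smad7, the inhibitory Smad (-0.25), Pmepa1 (-0.21) and Tgfbr1 (-0.14) were close to 0.

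On the positive side Havcr1 stood first. Havcr1 encodes TIM-1, a costimulatory receptor of T and B cells. It had a log2 level of 6.45 with both cytokines, 5.40 in IL-1β Th9 cells, 5.78 in classic Th9 cells and 6.49 in Th2 cells, so each cytokine went with a lower level and the pair did not. The IL-1β difference was 0.67 with TGF-β and -1.09 without, and the TGF-β difference was 1.05 with IL-1β and -0.71 without. The non-additivity of 1.76 compares with -0.55 to 0.64 for like genes. A TIM gene close to it, Timd2, which encodes TIM-2, also had a positive value but another shape. Its level was 8.37 with both cytokines, 8.85 in IL-1β Th9 cells, 7.15 in classic Th9 cells and 8.52 in Th2 cells, a non-additivity of 0.89. Only classic Th9 cells were low for Timd2. Both genes lie on chromosome 11, Timd2 starting at 46668960 and Havcr1 at 46739822 (GRCm38.p6). Havcr2, which encodes the inhibitory receptor TIM-3, went the other way, with a non-additivity of -0.70 and a level of 6.15 with both cytokines, 7.61 in IL-1β Th9, 6.70 in classic Th9 and 7.46 in Th2 cells.

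Among the other genes ranked highest, all 15 places, Havcr1 included, went to genes with mean levels between 5.19 and 6.39, such as Tcl1b2 (1.52), Nat8f3 (1.38), Fthl17b (1.36), Gucy1a1 (1.22) and the NK receptor Klrb1 (1.20). Their IL-1β differences without TGF-β were -0.63, -0.58, -0.57, -1.02 and -0.34. In each of these the array with both cytokines was higher than classic Th9 cells.

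Bright genes with a positive value were mostly low in classic Th9 cells. Of 19 such genes, gene models aside, the classic Th9 array held the lowest level in 15 and the IL-1β Th9 array in 3. By its formula a positive value favours a low level with a single cytokine, so these counts partly restate how the genes were selected. The share over all bright genes was not counted. TGF-β without IL-1β gave a level lower than Th2 by 1.5-fold or more in 11. IL-1β added to TGF-β gave a level higher by 1.5-fold or more in 7, and IL-1β alone in 1 (Il13). The values nearest the limit were those of Alpl (0.59, counted) and Perp (0.58, not counted) on this side, and of Slc25a40 (-0.59, counted) and Psmg1 (-0.58, not counted) on the negative one.

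Cth, which encodes cystathionine γ-lyase, the enzyme that makes cysteine from cystathionine, led the bright genes. The log2 level of Cth was 8.36 with both cytokines, 8.60 in IL-1β Th9 cells, 7.00 in classic Th9 cells and 8.17 in Th2 cells. Classic Th9 cells alone were low: the IL-1β difference was 1.36 with TGF-β and 0.43 without, a non-additivity of 0.93. Cth belongs to the ATF4 and amino acid list, of which 26 of 27 were measured, 20 of them bright. Cth was the single member past 1.5-fold, where 3.12% of all genes and 0.302% of bright genes passed on the positive side. The list's median was 0.05. Pltp, which encodes a phospholipid transfer protein, had levels of 10.15, 9.98, 9.36 and 9.97 in the same order (non-additivity 0.77), and Casp1, the protease that matures IL-1β, 10.70, 10.61, 10.08 and 10.62 (0.63). In Pltp and Casp1 classic Th9 cells were again the low array and the other 3 lay close together.

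Lipid synthesis was the list with the most positive values. Cholesterol synthesis genes (22 measured of 29 listed, with some fatty acid and sterol transport genes) had a median non-additivity of 0.39, against -0.01 over all genes, with quartiles of 0.20 and 0.51. Of the 22, 20 were above 0, as were 10679 of all 22184 genes. Past 1.5-fold, 4 were positive (Hmgcs1, Fdps, Insig1 and Mvd) and 1 negative (Scd1), and 21 of the 22 were bright. Of all genes 3.12% and 2.94% passed, and of bright genes 0.302% and 0.275%. Above the central 95% of genes of like level lay 13 of the 22, where about 2.5% of genes lie by definition. The IL-1β difference was above 0 with TGF-β in 19 and without TGF-β in 2. That share over all genes was not counted, but the median IL-1β difference over all genes was -0.01 in each setting. The IL-1β differences of the 22 were small: none was higher by 1.5-fold with IL-1β in either setting.

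Hmgcs1, the HMG-CoA synthase that makes the substrate of the rate-limiting reductase, had log2 levels of 10.85 with both cytokines, 10.47 in IL-1β Th9 cells, 10.28 in classic Th9 cells and 10.76 in Th2 cells. The arrays with 1 of the cytokines were lower than those with both or neither. Its non-additivity was 0.86, where like genes ran between -0.20 and 0.31. Fdps, farnesyl diphosphate synthase (9.92, 9.65, 9.35 and 9.80 in the same order; 0.71), Insig1, a sterol sensor partner (10.80, 10.68, 10.39 and 10.89; 0.62), and Mvd, mevalonate decarboxylase (8.91, 8.54, 8.55 and 8.78; 0.60), had the same shape. Fdft1 (0.53), Cyp51 (0.52), Sqle (0.48) and Msmo1 (0.47), later enzymes of the pathway, followed at under 1.5-fold. Fads2, a fatty acid desaturase that was not on the list, was also past 1.5-fold at 0.82, with levels of 10.34, 9.90, 9.63 and 10.02. Abcg1 and Scd1 were the members below 0 (-0.27 and -0.66).

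**Figure D3:**
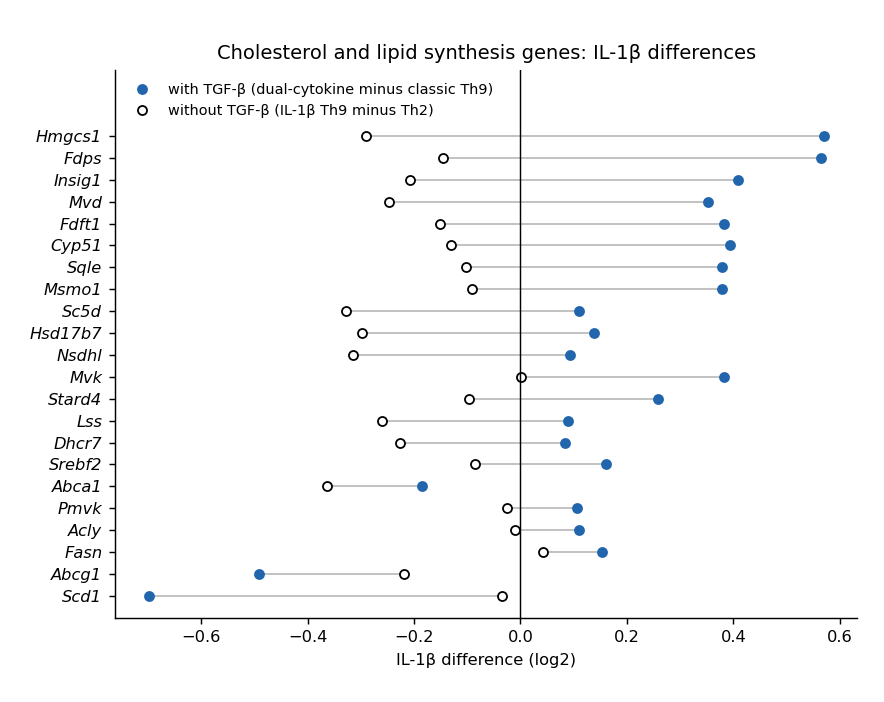
IL-1β difference (x axis, log2) for each measured gene of the cholesterol and lipid synthesis list, 1 row per gene. Filled points are the difference with TGF-β (dual-cytokine minus classic Th9) and open points that without TGF-β (IL-1β Th9 minus Th2): the filled point lies to the right of the open one in 20 of 22 genes, Scd1 and Abcg1 being the others.

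The 250 bases before the start of Hmgcs1 are printed as those of the gene with the highest value in the list; capitals mark TCACNCCAC, the sterol regulatory element string bound by SREBP, at bases -137 to -129 on the plus strand (RefSeq, GRCm38.p6, chr13:119690101-119690350, plus strand).
Hmgcs1: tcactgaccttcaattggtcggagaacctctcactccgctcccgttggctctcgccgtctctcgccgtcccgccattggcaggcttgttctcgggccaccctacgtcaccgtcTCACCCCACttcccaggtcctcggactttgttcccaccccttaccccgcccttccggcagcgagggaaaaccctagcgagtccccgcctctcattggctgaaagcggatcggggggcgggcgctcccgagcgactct
That string is in the same window, on either strand, of 1.22% of all 27025 genes with a listed promoter and of 1 of the 16 list members with one; it was searched for after the list's values were known.

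Il9, the defining cytokine of Th9 cells, was additive on the log2 scale. The level of Il9 was 12.11 with both cytokines, 10.84 in IL-1β Th9 cells, 8.77 in classic Th9 cells and 7.53 in Th2 cells. Each cytokine went with a higher level both alone and on top of the other: the IL-1β difference was 3.33 with TGF-β and 3.31 without, and the TGF-β difference was 1.27 with IL-1β and 1.24 without. The non-additivity was 0.03. On the linear scale the same 4 values are not additive. The sum of the 2 linear increments would give a log2 level of 11.02, and the observed level was 1.08 above it (2.12-fold). The 250 bases before the Il9 start are printed for comparison with the non-additive genes above; capitals mark, in order, TTCNNNNGAA, a STAT6-type string, at bases -184 to -175, and TGANTCA, an AP-1 string, at -140 to -134 (RefSeq, GRCm38.p6, chr13:56482258-56482507, minus strand).
Il9: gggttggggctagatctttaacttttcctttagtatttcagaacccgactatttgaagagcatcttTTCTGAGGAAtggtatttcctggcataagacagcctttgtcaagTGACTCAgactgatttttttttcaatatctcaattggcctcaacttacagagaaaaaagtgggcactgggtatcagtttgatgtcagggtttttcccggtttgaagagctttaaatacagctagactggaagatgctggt
The first occurs in the window of 6.76% of all genes with a listed promoter and the second in 7.82%, on either strand and without overlap here. No string for NF-κB is marked. The authors report increased binding of the NF-κB member RelA at the Il9 promoter in IL-1β Th9 cells, by chromatin immunoprecipitation.

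Of the ranked genes, 6 differed from Th2 by 2-fold or more with each single cytokine: Il9, Il13, Cxcl3, Itih5, Nrgn and Nrn1. For Il13, a type 2 cytokine, the cytokines pointed in opposite directions. Il13 had a log2 level of 10.06 with both cytokines, 11.07 in IL-1β Th9 cells, 6.37 in classic Th9 cells and 8.11 in Th2 cells. The IL-1β difference was 3.69 with TGF-β and 2.95 without, and the TGF-β difference was -1.01 with IL-1β and -1.74 without, a non-additivity of 0.73. On the linear scale its sign turned: the observed level minus that expected from the sum of linear increments was -0.87 log2 units. Cxcl3, a neutrophil-attracting chemokine, had levels of 6.99, 7.40, 4.68 and 5.90 in the same order (non-additivity 0.81) and lay -0.09 log2 units from the linear sum. Itih5, a hyaluronan-linked inhibitor chain, was additive on the log2 scale (0.07) with levels of 8.86, 7.62, 10.05 and 8.87. Il21, a cytokine made by follicular helper T cells, had an IL-1β difference of 2.65 with TGF-β and 2.13 without; its non-additivity of 0.52 lay inside the range of like genes, and its level was 0.04 log2 units above the linear sum.

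**Figure D4:**
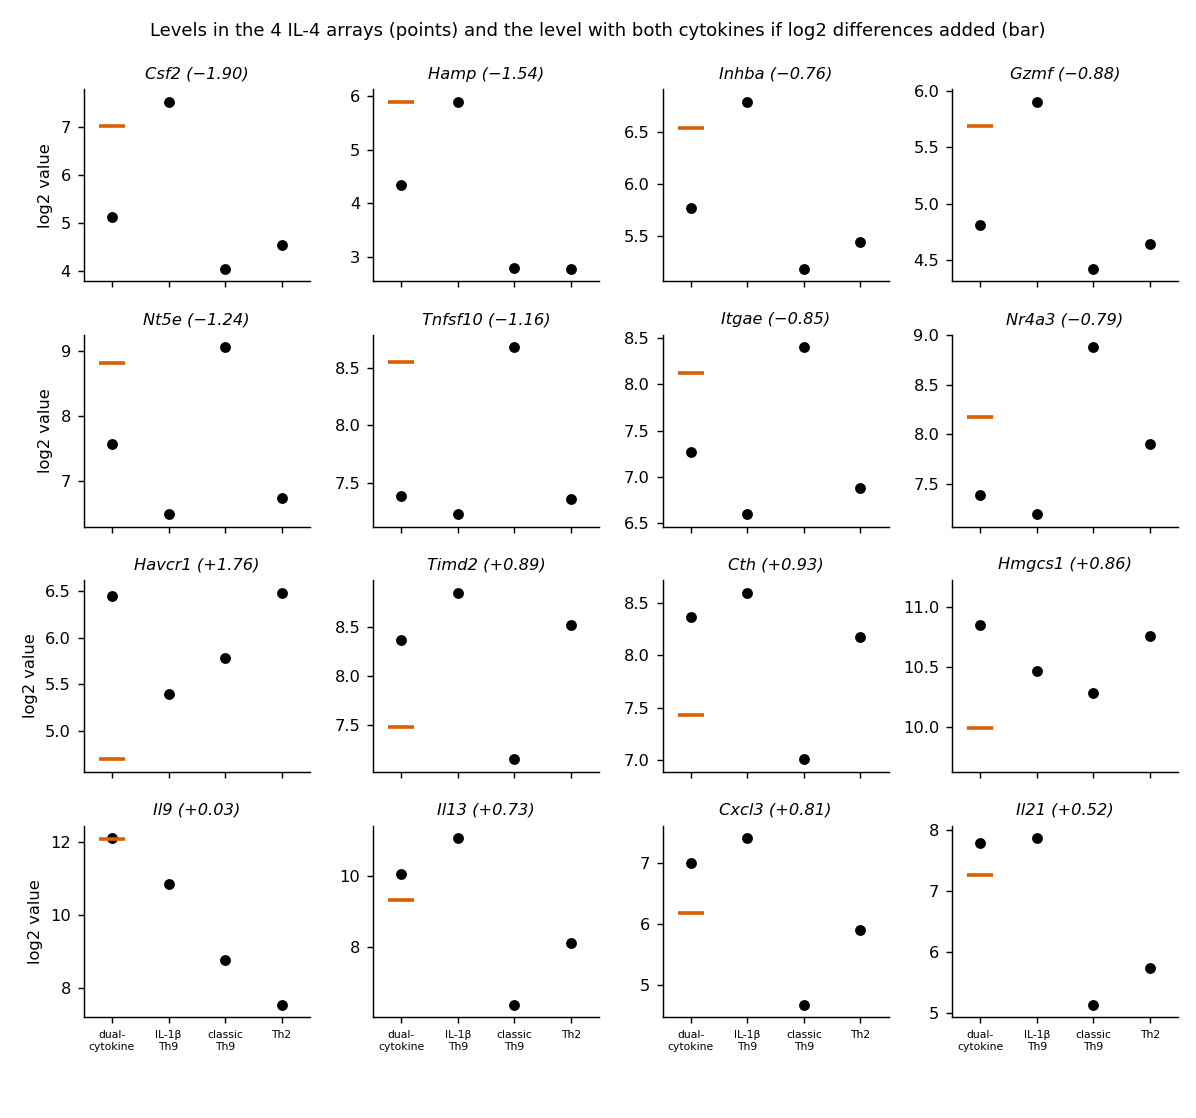
Log2 level (y axis) of 16 genes in dual-cytokine, IL-1β Th9, classic Th9 and Th2 cells, left to right, 1 array each, with the y range set for each gene. The horizontal bar in the first position is the level with both cytokines if the log2 differences added, and the number in each title is the non-additivity: the point lies below the bar for Csf2 and Nt5e, above it for Havcr1 and Hmgcs1, and on it for Il9.

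Lists of IL-1β pathway genes had no member past 1.5-fold. Among bright genes 0.302% passed on the positive side and 0.275% on the negative, so a count of 0 is near that share. Of NF-κB feedback and target genes 28 of 31 were measured, 26 of them bright, with a median of -0.02 and 0 past 1.5-fold in either direction. Of the 28, 3 lay below and 1 above the central 95% of genes of like level. IL-1β gave a higher level in 23 of the 28 with TGF-β and in 27 without, but past 1.5-fold in only 2 in each setting. The list's median IL-1β difference was 0.21 with TGF-β and 0.21 without, against -0.01 over all genes in each setting. Tnip3, an inhibitor of NF-κB signalling, had an IL-1β difference of 1.59 with TGF-β and 1.51 without, and the RNase gene Zc3h12a one of 0.78 and 0.67. Nfkbia, which encodes IκBα, had differences of 0.54 and 0.46. Relb (0.37) and Birc2 (-0.41) were the members farthest from 0. IL-1 receptor signalling genes (17 of 19 measured, 11 of them bright) had a median of 0.03 and 0 past 1.5-fold. Of the 17, 1 lay above and 0 below the central 95% of genes of like level. Il1r2, the decoy receptor, had an IL-1β difference of 1.08 with TGF-β and 0.87 without. Il1r1, the signalling receptor, had a level of 7.43 in dual-cytokine cells, 7.53 in IL-1β Th9, 7.20 in classic Th9 and 7.71 in Th2 cells (0.41).

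Transcription factors of the helper subsets also had no member past 1.5-fold (47 of 50 measured, 35 of them bright, median -0.04). Among bright genes 0.302% passed on the positive side and 0.275% on the negative, so a count of 0 is near that share. Of the 47, 2 lay above and 1 below the central 95% of genes of like level. Batf, a factor that Th9 cells need, had an IL-1β difference of 0.76 with TGF-β and 0.49 without (non-additivity 0.28), and Hif1a the lowest value (-0.39). A second transcript cluster of Hif1a had a non-additivity of -0.12. Cell cycle genes had a median of -0.07, with 34 of 36 measured and 0 past 1.5-fold. All 34 were bright, and 0 lay outside the central 95% of genes of like level. IL-2 and STAT5 target genes, which bear on the IL-2 in Th2 medium, had a median of -0.03 (29 of 31 measured, 27 bright). Il13 was the single member past 1.5-fold. Of the 29, however, 5 lay below the central 95% of genes of like level and 1, Il13, above. The 5 were Lta (-0.46), Tnfrsf4 (-0.33), Lif (-0.33), Pim1 (-0.28) and Socs2 (-0.24). Immediate early genes had a median of -0.09 over 34 of 36 measured, and 3 were past 1.5-fold, all negative (Nr4a3, Dusp6 and Nr4a1), where 2.94% of all genes and 0.275% of bright genes passed on that side. Of the 34, 7 lay below the central 95% of genes of like level and 0 above. Egr1 (-0.45) and Egr3 (-0.52), zinc finger factors induced by the antigen receptor, were among the 7 without reaching 1.5-fold.

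**Figure D5:**
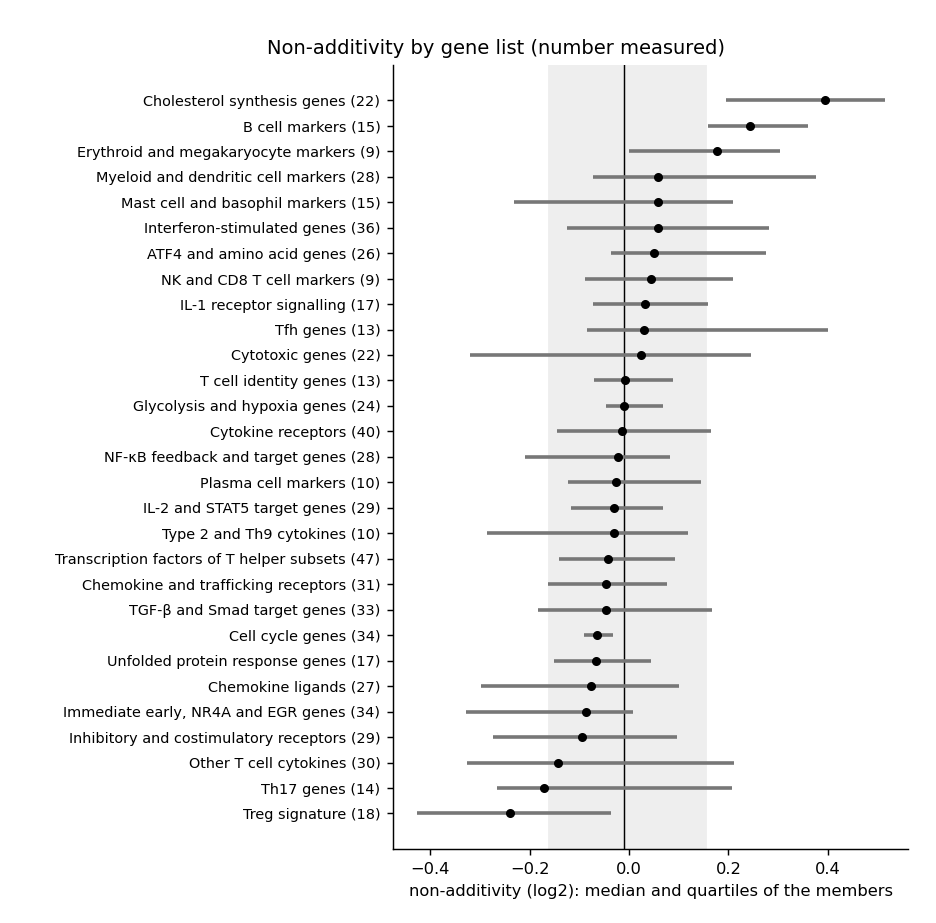
Median (points) and quartiles (lines) of non-additivity (x axis, log2) for each of the 29 gene lists, with the number of measured genes in brackets, and the median and quartiles of all genes as the vertical line and the grey band. Cholesterol synthesis genes (median 0.39) and B cell markers (0.24) are at the top and Treg signature genes (-0.24) at the bottom.

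Markers of the antigen-presenting cells were present on every array and moved with some of these results. B cell markers (15 of 18 measured) had a summed linear level of 24350 with both cytokines, 29317 in IL-1β Th9 cells, 22304 in classic Th9 cells and 32113 in Th2 cells. Classic Th9 cells were the lowest array for 12 of the 15, the markers' median non-additivity was 0.24, and 7 lay above the central 95% of like genes. Past 1.5-fold there were 0, where 0.302% and 0.275% of bright genes passed, and 12 of the 15 were bright. Pax5, the B cell identity factor, had levels of 8.81, 9.07, 8.54 and 9.36 in the same order (0.54). Classic Th9 cells were also the lowest array in 15 of the 19 bright positive genes, and the part of B cell RNA in them was not tested. Hpgds, prostaglandin D synthase (0.62), and Rnase6 (0.62) were among these 15 and highest in Th2 cells. H2-Eb2, a class II gene (0.63), was also highest in Th2 cells (9.72) but not lowest in classic Th9 cells. Classic Th9 cells were the lowest array in 12 of the 22 cholesterol synthesis genes as well, and the part of B cell RNA in their values was not tested. In other lists they were the lowest array in 19 of 26 ATF4 and amino acid genes, 17 of 28 NF-κB genes and 0 of 34 cell cycle genes. A low level in classic Th9 cells was thus not particular to B cell markers or cholesterol genes. Its share over all genes was not counted.

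Plasma cell markers differed mainly with TGF-β and were additive. Jchain, the joining chain of secreted antibody, had log2 levels of 4.89 with both cytokines, 9.63 in IL-1β Th9 cells, 4.68 in classic Th9 cells and 9.30 in Th2 cells, a non-additivity of -0.13, and the median over 10 of 11 measured markers was -0.03. Myeloid and dendritic cell markers (28 of 29 measured) were mostly dim, with a median of 0.06, 3 past 1.5-fold on the positive side and 1, the neutrophil marker Ly6g (-1.27), on the negative, against 3.12% and 2.94% of all genes. Their summed linear level was 3145 with both cytokines, 3453 in IL-1β Th9 cells, 2980 in classic Th9 cells and 3442 in Th2 cells. Ccl24 (-1.19), an eosinophil-attracting chemokine that macrophages make, was highest in IL-1β Th9 cells at 7.28, against 6.35 with both cytokines, 6.70 in classic Th9 and 6.45 in Th2 cells. Ms4a4c (-1.27) was lowest with both cytokines (4.99, against 6.80, 5.99 and 6.53 in that order). In such mixed cultures fewer cells of a type and less RNA per cell cannot be told apart. T cell identity genes (13 of 16 measured), which check the label of the cells, had a mean log2 level of 10.79 with both cytokines, 10.62 in IL-1β Th9 cells, 10.92 in classic Th9 cells and 10.75 in Th2 cells. Their median non-additivity was -0.01 and 0 were past 1.5-fold, where 0.302% and 0.275% of bright genes passed. All 13 were bright. Classic Th9 cells were the highest array in 10 of these 13 and in 26 of 34 cell cycle genes. They were highest in 3 of 28 NF-κB genes and 1 of 26 ATF4 and amino acid genes. They were also highest in 15 of the 20 bright negative genes, and the part of T cell RNA in those 20 was not tested. The share of all genes that were highest in classic Th9 cells was not counted.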

How the data were processed

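The authors hybridised RNA of each condition to 1 Affymetrix Mouse Gene 2.0 ST array. The authors deposited log2 values from robust multi-array averaging (RMA, which subtracts background, quantile normalizes the arrays and summarizes probes) in Affymetrix Expression Console; their versions: not given in the sources used here. Array medians were between 5.41 and 5.44, and upper quartiles between 7.54 and 7.65. The Th1 array was not used. Names came from the platform annotation: 1816 clusters with several symbols and the unnamed ones were left out, and 23328 of 23525 named clusters matched RefSeq (GRCm38.p6).

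Differences were computed with Python 3.11.15, numpy 2.4.6 and pandas 2.3.3. On simulated data the formula returned the known values, which checks the arithmetic and not the calls in these data. With 1 array per condition no p-value was computed, and the number of arrays limits the precision. Named genes were drawn from the 15 highest and 15 lowest genes, and from up to 4 members of each of 29 lists with the largest absolute value. Il9, Csf2 and Nt5e were added. Not all genes so drawn are printed above. The ranking left out gene models, small RNAs, receptor segments, olfactory receptors and genes below the median of all values on every array. Bright genes and further list members were named after their values were seen. Members and lists were chosen with earlier results of these data known. Alternatives changed the centring, the treatment of dim values, the scale, the choice of cluster and the genes counted.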

Additional observations from a re-analysis of the deposited data

Results flagged for a closer look

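Havcr1 (TIM-1) is listed because its IL-1β difference had opposite signs in the 2 settings, 0.67 with TGF-β and -1.09 without, and its TGF-β difference likewise (1.05 with IL-1β, -0.71 without); its non-additivity was 1.758. The difference was not tested, as for the genes that follow. Tcl1b2, a TCL1 family gene, had an IL-1β difference of 0.89 with TGF-β and -0.63 without (non-additivity 1.515). Ly6g, a neutrophil marker, had -0.63 with TGF-β and 0.65 without (-1.273), at levels between 4.17 and 5.17. In Nat8f3 the TGF-β difference was 0.75 with IL-1β and -0.63 without (1.381). Gal3st2b, a sulfotransferase gene, had -0.64 with IL-1β and 0.69 without (-1.325), and Pth -1.56 and 0.68 (-2.238). Of all 22184 genes, 7 had IL-1β differences past 1.5-fold in opposite directions and 9 had such TGF-β differences. Only 2 of the 7 and 4 of the 9 were among the ranked genes. The 7 include the olfactory receptors Olfr1132 and Olfr259 and the microRNAs Mir3473b and Mir467d, which the ranking left out.

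Outside the named genes, the 5333 unnamed transcript clusters with the lowest IDs had a negative non-additivity of 2-fold or more in 16.1% (857 clusters) and a positive one in 4.59% (245), against 1.26% and 0.632% of olfactory receptor transcripts. Their median level was 5.09 in dual-cytokine cells, 5.40 in IL-1β Th9 cells, 5.05 in classic Th9 cells and 5.04 in Th2 cells. The upper quartile of all values was also highest on the IL-1β Th9 array (7.65, against 7.57, 7.57 and 7.59 in that order). Over the 22184 genes the median level was 5.88, 5.83, 5.86 and 5.87, with IL-1β Th9 cells second. The IL-1β Th9 array enters every non-additivity with a minus sign. Whether the shift reaches genes named as high or low in IL-1β Th9 cells was not tested.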

How the results depend on the processing

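The counts moved most with the treatment of dim genes and with the linear scale. With 16 added before the log, 3 genes were positive and 10 negative at 2-fold, and 123 and 111 at 1.5-fold. Among genes with a mean above the median of all values, the counts were 9 and 10 at 2-fold and 204 and 147 at 1.5-fold. Among bright genes, chosen after the data were seen, they were 0 and 1 at 2-fold and 22 and 20 at 1.5-fold. Against linear increments 175 genes were positive at 2-fold, and with 75th percentile centring 68. The positive share of all genes past 1.5-fold was 51.5%, against 67.1% with 75th percentile centring, 62.8% after a second quantile normalization and 62.4% on the linear scale. Of patterns with 1 array standing apart, those at 2-fold non-additivity numbered 10 for IL-1β Th9 highest, 5 for classic Th9 highest, 4 for IL-1β Th9 lowest and 4 for classic Th9 lowest.

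Il13 (-0.87) and Cxcl3 (-0.088) changed sign on the linear scale, which sums increments rather than ratios. The other alternatives reversed no named gene past 1.5-fold, and the medians of the cholesterol, Treg and B cell lists moved by under 0.1 log2 units under each alternative run. No paired analysis was possible because each condition is 1 array. The number of arrays limits every value, and genes near or below the median of all values lie where dim signals spread most.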
